A study of Mus musculus with 6 samples.

Results

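The genes described here are 10 members of the Hippo pathway: the atypical cadherins Fat4 and Dchs1, the kinases Lats1 and Lats2, the coactivators Yap1 and Wwtr1 (also called Taz), the DNA-binding factors Tead1, Tead2 and Tead4, and Vgll4, a protein that competes with Yap1 for Tead binding. Their regions were all distinct regions of an ATAC-seq count table whose midpoint lay in the gene body or within 50 kb of it (mm10 coordinates, RefSeq gene spans). This gave 62 of 43523 regions: 5 at Fat4, 10 at Dchs1, 5 at Lats1, 4 at Lats2, 10 at Yap1, 9 at Wwtr1, 6 at Tead1, 3 at Tead2, 5 at Tead4 and 5 at Vgll4. ATAC-seq counts DNA fragments released where the transposase Tn5 can reach the chromatin, so a higher count means more open DNA.

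The cells were nephron progenitors of CD1 mice at E14.5 or at P0 (the day of birth), held for 6 libraries, 3 per stage. The labels give no transgene, allele or agent in either group, so the stages differ in age alone as far as they say. Each library came from 50000 cells taken from the kidneys of 1 litter (up to 24), selected on beads with antibodies to the surface integrin Itga8. The kidneys of a litter were pooled and the cells are a bulk sample, so a change in the share of cells that are open at a region and a change in openness per cell cannot be told apart.

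In the Hippo pathway, Lats kinases phosphorylate Yap1 and Wwtr1 and keep them out of the nucleus. When the kinases are less active, Yap1 and Wwtr1 enter the nucleus and drive transcription with Tead factors, while Vgll4 occupies Tead and represses the same targets. Fat4 and Dchs1 are very large cadherins that bind each other across cells, and in the developing kidney Fat4 of the stroma is known to limit the progenitor pool through Dchs1. Yap1 is known to be needed in nephron progenitors for nephron formation.

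Counts in regions ran from 6492996 to 12292629 per library. Start-site regions of marker genes were present in the table for 6 of 8 nephron progenitor genes (missing for Crym and Meox1), 2 of 5 genes of differentiating nephrons, 4 of 8 stromal, 5 of 6 ureteric, 1 of 6 endothelial and 0 of 4 immune genes, and 0 of these regions passed between the stages (edgeR, adjusted p under 0.05), where 0.851% of all promoter regions did. Summed over its list, the progenitor signal was 151 to 163 CPM at E14.5 and 143 to 166 CPM at P0, where CPM are counts scaled to a common library size. The stromal sum was 88.4 to 122 CPM at E14.5 and 103 to 122 CPM at P0. The ureteric sum was 137 to 164 CPM at E14.5 and 115 to 146 at P0, and that of differentiating nephrons 94.9 to 107.5 and 88.4 to 124. The part of these cell types in the results was not tested. Of the stromal list, start-site regions were present for Foxd1, Tbx18, Dcn and Lum, and none was listed for Pdgfra, Pdgfrb, Col1a1 or Col3a1. An open promoter is not expression, and the part of stromal cells in the Fat4 values was not tested.

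Promoter sequences from RefSeq (GRCm38.p6) were used for 7 of the 10 genes, and those of Dchs1, Tead1 and Tead4 were not used here. They were searched on both strands for GGAATG, whose reverse complement is CATTCC, the core of the site that Tead factors bind. The 7 genes had 9 windows of 250 bases before to 50 after a start site, Wwtr1 and Lats2 having 2 each. A match was present in 5 of the 9 (Yap1, both of Wwtr1, Vgll4 and 1 of Lats2), and in 14.7% of all 32851 RefSeq promoter windows. The 2 Wwtr1 windows overlap and hold the same match, and by gene 4 of the 7 had a match. Yap1, Wwtr1 and Vgll4 have the match upstream of the start, and the 250 bases before the start site of these genes are shown because they encode the partners of Tead and lie inside the open start-site regions described next. Capitals mark the match, and a match is a description of letters, not a bound site.
Yap1, chr9:8004597-8004846, minus strand: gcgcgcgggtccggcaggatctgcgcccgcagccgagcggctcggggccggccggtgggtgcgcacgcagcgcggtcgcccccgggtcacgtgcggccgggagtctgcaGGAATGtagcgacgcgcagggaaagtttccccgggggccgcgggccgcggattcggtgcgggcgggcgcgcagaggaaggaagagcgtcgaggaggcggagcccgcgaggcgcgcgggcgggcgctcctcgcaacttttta
Wwtr1, chr3:57575911-57576160, minus strand: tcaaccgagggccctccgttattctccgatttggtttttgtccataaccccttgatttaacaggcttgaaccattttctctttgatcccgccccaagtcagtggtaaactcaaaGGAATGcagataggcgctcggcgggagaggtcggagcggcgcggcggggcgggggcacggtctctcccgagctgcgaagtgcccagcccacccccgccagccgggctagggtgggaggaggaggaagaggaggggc
Vgll4, chr6:114969204-114969453, minus strand: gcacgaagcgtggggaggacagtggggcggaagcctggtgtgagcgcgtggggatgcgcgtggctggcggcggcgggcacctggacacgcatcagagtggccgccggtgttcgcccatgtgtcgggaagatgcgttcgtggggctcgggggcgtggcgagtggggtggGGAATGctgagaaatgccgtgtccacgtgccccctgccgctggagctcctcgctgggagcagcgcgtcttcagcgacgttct
The match began 141 bases before the start site at Yap1, 136 before the first of those of Wwtr1 and 82 at Vgll4, and at Lats2 it lay just after the start. The Yap1 window held 49 CG dinucleotides, more than 99.0% of all promoter windows, and that of Fat4 held 13, more than 62.1%. No match was found in these windows at Fat4, Tead2 or Lats1.

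All 10 genes had an open region at their start site, and none of the 10 passed the test between the stages, as against 0.851% of all promoter regions that did. Per length, the start-site region of Wwtr1 was the most accessible, with 37.3 CPM per kb averaged over the 6 libraries, above 91.0% of the 14097 regions that the table lists as promoters. Yap1 followed with 22.1, then Lats1 with 14.1, Tead4 with 13.5, Tead1 with 12.4, Fat4 with 11.8, Vgll4 with 9.85, Lats2 with 8.15, Dchs1 with 8.11 and Tead2 with 6.22 CPM per kb. Wwtr1 did not overlap Yap1, since its lowest library had 29.5 and the highest of Yap1 had 26.9 CPM per kb. Every later gene in this order overlapped the one before it in the range of its libraries, although Yap1 was above Lats1 in each of the 6 libraries. Tead2, the last, lay above 4.04% of promoter regions.

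**Figure D1:**
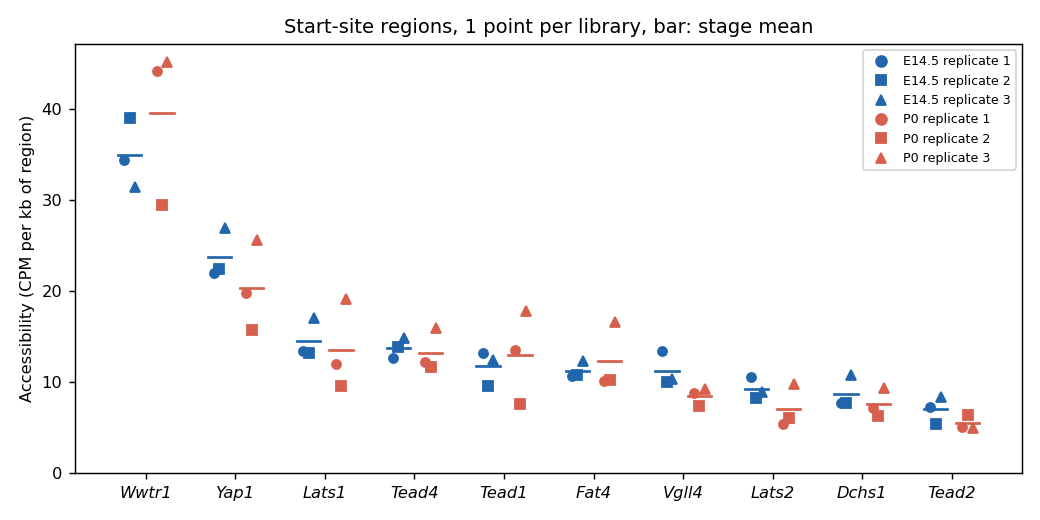
Accessibility of the start-site region of each gene, in CPM per kb of region on a linear axis, with 1 point per library and a bar at the stage mean (n = 3 per stage, blue E14.5, red P0). Wwtr1 stands above the other genes, from 29.5 to 45.2 CPM per kb, and the stages overlap at every gene except Vgll4. Over all promoter regions the stages do not overlap in 16.75%.

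The start-site region of Fat4 (chromosome 3, 38884158 to 38888763) had 48.9, 49.7 and 56.6 CPM at E14.5 and 46.7, 47.1 and 76.6 at P0. The stages overlapped, with P0 replicate 3 above all other libraries. That of Dchs1, the partner of Fat4 (chromosome 7, 105786323 to 105788991), had 20.5, 20.4 and 28.6 CPM at E14.5 and 18.9, 16.6 and 24.8 at P0. Here the values of the stages were interleaved.

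For the kinases, the Lats1 region (chromosome 10, 7679902 to 7682412) had 33.6, 33.1 and 42.9 CPM at E14.5 and 30.0, 24.1 and 48.1 at P0, so that the lowest and the highest library were both from P0. The Lats2 region (chromosome 14, 57745309 to 57747314) had 21.1, 16.6 and 17.9 CPM at E14.5 and 10.8, 12.1 and 19.6 at P0. At Lats2, P0 replicates 1 and 2 lay below all E14.5 libraries and replicate 3 did not.

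The start-site region of Yap1 (chromosome 9, 8002714 to 8005427) had 59.7, 61.0 and 73.0 CPM at E14.5 and 53.6, 42.5 and 69.5 at P0. Wwtr1, the paralog of Yap1, had 75.6, 85.7 and 69.1 CPM at E14.5 and 97.0, 64.8 and 99.2 at P0 at its start-site region (chromosome 3, 57574802 to 57576997). At both coactivators the stages overlapped, and P0 replicate 2 was the lowest library.

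Of the Tead genes, Tead1 (chromosome 7, 112678313 to 112680327) had 26.6, 19.4 and 25.1 CPM at E14.5 and 27.3, 15.3 and 36.0 at P0. Tead4 (chromosome 6, 128299503 to 128301639) had 27.0, 29.5 and 31.8 CPM at E14.5 and 26.0, 24.8 and 34.0 at P0. Tead2 (chromosome 7, 45214739 to 45217653) had 21.1, 15.7 and 24.4 CPM at E14.5 and 14.58, 18.5 and 14.52 at P0. In none of these Tead genes did the stages separate.

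The Vgll4 region (chromosome 6, 114968355 to 114970581) had 29.8, 22.3 and 22.9 CPM at E14.5 and 19.7, 16.5 and 20.4 at P0. It was the only start-site region of the 10 in which every P0 library lay below every E14.5 library. Over all promoter regions, 16.75% had stages that did not overlap, in either direction. The log2 fold change of the Vgll4 region was -0.40 (SE 0.20, 95% interval -0.82 to 0.03), with an adjusted p of 0.304 in edgeR's quasi-likelihood test, so it did not pass. The table lists 2 further promoters within Vgll4, with log2 fold changes of -0.02 and 0.10.

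Across the 10 start-site regions 7 had a log2 fold change below 0 and 3 above, with a median of -0.14, against a median of -0.10 over all promoter regions and 0.01 over all regions. All 10 intervals lay within a 2-fold change in either direction, from -0.89 at Lats2 to 0.72 at Tead1 at their widest. These 95% intervals are those of single regions, without adjustment. P0 replicate 2 was the lowest of the 6 libraries at 7 of the 10, and at 49.4% of all promoter regions against 11.6% of the regions that are not promoters. Without that library 5 of the 10 were below 0 and the median was -0.02. Without E14.5 replicate 3 there were also 5, with a median of -0.0060, and without P0 replicate 3 there were 9, with a median of -0.36.

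Of all 62 regions, 1 differed between the stages at an adjusted p under 0.05 (1.61%), against 4.73% of all regions tested. It was higher at P0 (1.79% of all regions were), and no region was lower (2.94% of all regions were). Below an adjusted p of 0.1 there were 3 (4.84%, against 8.02% of all regions), all higher at P0. At an unadjusted p under 0.05 there were 8 (12.9%, against 18.7% of all regions), and 14 had every P0 library on one side of every E14.5 library (22.6%, against 24.2%). Of the 14, 9 were higher at P0 (14.52%, against 11.8% of all regions) and 5 lower (8.06%, against 12.4%).

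**Figure D2:**
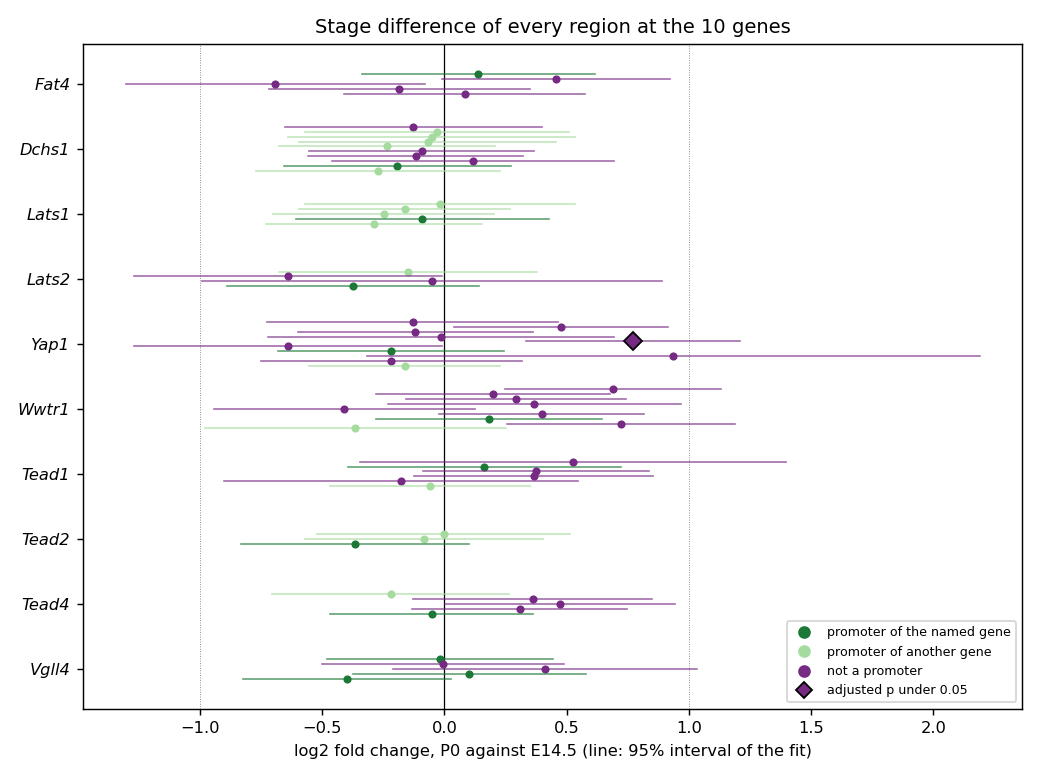
log2 fold change of each of the 62 regions between P0 and E14.5 with its 95% interval (line), grouped by gene and coloured by whether the table lists the region as a promoter. Dotted lines mark a 2-fold change. A single region, in Yap1, is past the threshold (diamond, 0.77), and the promoters sit close to 0.

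The region that passed lies inside Yap1, 51.8 kb from the start site in the direction of transcription (chromosome 9, 7951497 to 7954030, 2534 bp), and overlaps an exon by the table's annotation. It had 14.0, 14.63 and 11.8 CPM at E14.5 and 27.0, 19.8 and 22.2 CPM at P0, from 101 to 281 counts. All P0 libraries were above all E14.5 libraries, with means of 13.5 ± 1.49 and 23.0 ± 3.64 CPM (SD, n = 3 each). Accessibility rose 1.71-fold (log2 fold change 0.77, SE 0.21, 95% interval 0.33 to 1.21, adjusted p = 0.0441 with edgeR's quasi-likelihood test).

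The Yap1 call was close to the threshold and was kept in 7 of 14 alternative fits, with adjusted p-values from 0.0276 to 0.285 and log2 fold changes from 0.62 to 0.86. The fit without a filter is among the 7 and equals the main fit, since the filter removed 0 regions. Without E14.5 replicate 1 or 3, or P0 replicate 1 or 3, the adjusted p was 0.110, 0.228, 0.285 and 0.0634. Set against the Yap1 start-site region of the same library, which needs no scaling, the region's signal was 0.235, 0.240 and 0.162 of it at E14.5 and 0.503, 0.466 and 0.319 at P0. The mean ratio was 2.03 times as high at P0, where the start-site region itself had a log2 fold change of -0.22. This ratio and those for the pair of regions beside Wwtr1 were computed after the data were seen, on regions chosen for their difference, and are a description with no test.

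The other 9 regions of Yap1 did not pass. A shorter region 44.1 kb from the start (chromosome 9, 7960125 to 7960912), chosen after its values were seen, went the other way, with 14.23, 11.5 and 20.0 CPM at E14.5 and 7.81, 6.81 and 14.1 at P0. The stages overlapped, and the log2 fold change was -0.64 (SE 0.30, adjusted p = 0.259). Beyond the end of Yap1, 29.1 kb from the gene, a region (7901959 to 7903923, also chosen after its values were seen) had 16.1, 15.0 and 12.1 CPM at E14.5 and 18.8, 18.5 and 22.7 at P0, with a log2 fold change of 0.48 (adjusted p = 0.222). The promoter of the neighbouring gene 9230110C19Rik, upstream of Yap1, was the most accessible per length of the Yap1 regions, at 41.4 CPM per kb, and had a log2 fold change of -0.16 (adjusted p = 0.697).

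The regions with the next smallest p-values flank Wwtr1 on either side. Beyond its end, 26.3 kb from the gene and inside Tm4sf4 by the table's annotation (chromosome 3, 57428359 to 57430389), the values were 11.3, 10.5 and 10.5 CPM at E14.5 and 17.9, 18.6 and 15.7 at P0. Upstream, 44.6 kb from the start (57619542 to 57621423), they were 9.37, 14.0 and 11.4 CPM at E14.5 and 20.3, 20.4 and 17.1 at P0. In both, the stages did not overlap. The log2 fold changes were 0.69 (SE 0.21, adjusted p = 0.0744) and 0.72 (SE 0.22, adjusted p = 0.0773), so neither passed in edgeR's quasi-likelihood test at 0.05. Without E14.5 replicate 2 the upstream region had an adjusted p of 0.0400.

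Set against the Wwtr1 start-site region of the same library, the region beyond the end had 0.149, 0.123 and 0.152 of its signal at E14.5 and 0.184, 0.287 and 0.158 at P0. The upstream one had 0.124, 0.164 and 0.166 at E14.5 and 0.209, 0.315 and 0.172 at P0. The mean ratios were 1.49 and 1.54 times as high at P0, again without overlap, and the start-site region had a log2 fold change of 0.18. Of the 9 Wwtr1 regions 7 had a log2 fold change above 0, with a median of 0.29. Inside the gene and outside exons, 2 more regions, chosen after their values were seen, had stages that did not overlap, in opposite directions. The one from 57486864 to 57488258 had 16.96, 16.8 and 19.1 CPM at E14.5 and 14.9, 8.02 and 16.4 at P0 (log2 fold change -0.41, adjusted p = 0.416). At the other (57510648 to 57513891) the log2 fold change was 0.40 (adjusted p = 0.298). A region within Wwtr1 from 57470121 to 57471455 overlaps an element listed from VISTA, a collection of tested enhancers, and the upstream region carries the only Jun motif names among the 62.

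**Figure D3:**
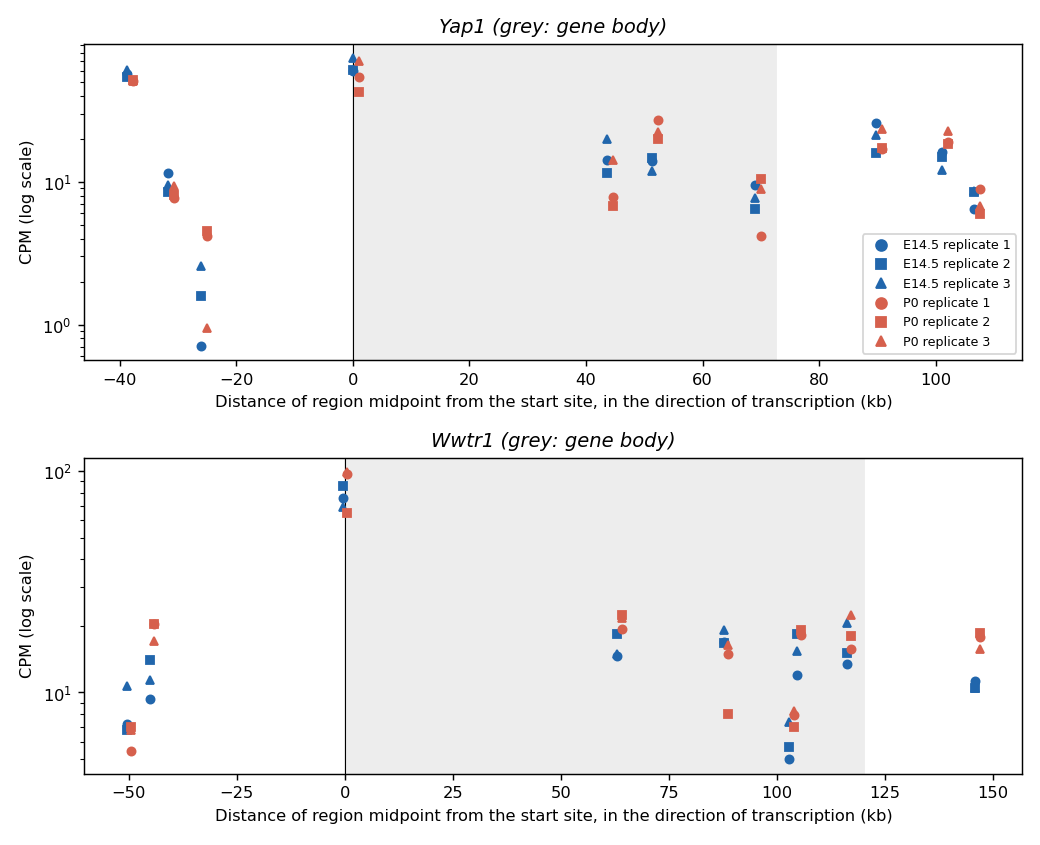
CPM (log axis) of every region at Yap1 and Wwtr1 against the distance of its midpoint from the start site in kb, with 1 point per library (blue E14.5, red P0, slightly offset) and the gene body in grey. At the Yap1 region 51.8 kb from the start P0 runs from 19.8 to 27.0 CPM, above all E14.5 points. The stages separate in 3 of the 10 Yap1 regions (2 higher and 1 lower at P0) and in 4 of the 9 Wwtr1 regions (3 higher and 1 lower), against 24.2% of all regions (11.8% higher and 12.4% lower).

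Fat4 had 4 regions in its body beyond the start. The one with the smallest p (chromosome 3, 38923141 to 38923848, outside exons) had 7.59, 10.9 and 10.0 CPM at E14.5 and 4.48, 5.90 and 7.26 at P0, all P0 libraries being lower. Its log2 fold change was -0.69 (SE 0.29, adjusted p = 0.202). The neighbouring region from 38912649 to 38914086, the most accessible per length of Fat4 at 12.6 CPM per kb, had 12.7 to 18.6 CPM at E14.5 and 16.6 to 23.3 at P0, with overlap (log2 fold change 0.46, adjusted p = 0.280). The Dchs1 neighbourhood was dense in other genes: 5 of its 10 regions were promoters of Ilk, Taf10, Tpp1 or Mrpl17, and that of Mrpl17 was the most accessible per length of all 62, at 71.0 CPM per kb. No Dchs1 region had an adjusted p below 0.589, and their log2 fold changes ran from -0.27 to 0.12.

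All Lats1 regions other than its start-site region were promoters of the neighbours Pcmt1, Nup43 and Katna1, so the table held no region in the Lats1 window that was not a promoter. The smallest p belonged to the Katna1 promoter (chromosome 10, 7725582 to 7727213), with a log2 fold change of -0.29 (adjusted p = 0.501). For Lats2 it belonged to a region 9.35 kb beyond the gene (chromosome 14, 57679879 to 57680739), with 6.52, 7.97 and 8.41 CPM at E14.5 and 4.37, 4.09 and 6.08 at P0. The P0 libraries were all lower there, and the log2 fold change stood at -0.64 (SE 0.30, adjusted p = 0.258). All 4 Lats2 and all 5 Lats1 regions had a log2 fold change below 0, and none passed. The median over all promoter regions was also below 0, at -0.10 (-0.03 without P0 replicate 2).

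Within Tead1 and outside its exons, a region on chromosome 7 (112742694 to 112744590) had 13.6, 11.7 and 16.5 CPM at E14.5 and 18.4, 15.1 and 20.4 at P0 (log2 fold change 0.38, adjusted p = 0.383). The table lists a Six2 motif match in this region and in the next Tead1 region (112785263 to 112787397), the 2 matches among the 62 (3.23%, against 2.65% of all regions). Six2 is the transcription factor that maintains nephron progenitors. Within Tead4, the region from 128278857 to 128280126 on chromosome 6, which carries a Meis1 motif match, had 10.7, 15.6 and 14.9 CPM at E14.5 and 22.4, 16.6 and 18.2 at P0. The stages did not overlap, and the log2 fold change was 0.47 (SE 0.22, adjusted p = 0.263). Tead2 had a single region of its own, the other 2 being promoters of neighbours.

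By class, 12 of the 62 regions were promoters of the 10 genes, 16 were promoters of other genes, 24 lay in the gene bodies and 10 outside. None of these 28 promoters passed, and 2 had stages that did not overlap, where 0.851% of all promoter regions passed and 16.75% did not overlap. Of the 16 promoters of other genes all had a log2 fold change below 0, the median being -0.16, but 12 with total-count scaling and 12 without P0 replicate 2. Of the 34 regions that are not promoters 12 did not overlap between the stages (35.3%, against 27.8% of all such regions), and 1 passed (2.94%, against 6.59%). Their median log2 fold change was 0.16, against 0.10 over all regions that are not promoters. The table lists no Tead motif at any region. Maz names were listed in 32.3% of the 62 regions, against 21.3% of all regions, and E2f names in 22.6% against 15.2%. Shares were lower for Meis names (2 regions, 3.23% against 5.46%), for Jun and other AP-1 names (1 region, 1.61% against 4.49%) and for enhancers listed from FANTOM (3 regions, 4.84% against 9.65%). None of these differences in share was tested. Promoters make up 28 of the 62 regions and 32.4% of all.

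Summed over all its regions, the stages overlapped at every gene. Wwtr1 had 165, 191 and 179 CPM at E14.5 and 217, 185 and 227 CPM at P0, a mean 17.3% higher, and P0 replicate 2 fell among the E14.5 libraries (exact two-sided permutation p = 0.2). Yap1 had 214, 197 and 228 CPM at E14.5 and 200.1, 185 and 228 CPM at P0, a mean 3.92% lower (exact permutation p = 0.8). The differences of all 10 genes ran from -19.0% at Lats2 to 17.3% at Wwtr1. The Lats2 difference of -9.03 CPM was -17.8 with windows of 100 kb, -4.88 without P0 replicate 1 and -14.6 without P0 replicate 3. Over the gene body alone it was -0.024 CPM. That sum held 1 region and left out the Lats2 start-site region, whose midpoint lies 0.1 kb outside the gene. The stages separated at Tead4 over the gene body alone or with 10 kb (10.9 CPM higher at P0, against 2.20), at Tead1 with total-count scaling (17.7 CPM) and at Wwtr1 with windows of 100 kb (39.5 CPM), each with the exact permutation p of 0.1. With the 50 kb windows and the main scaling, exact permutation p-values were 0.2 to 1 and their Benjamini-Hochberg adjusted values over the 10 genes were 1, in a design that allows none below 0.1.

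**Figure D4:**
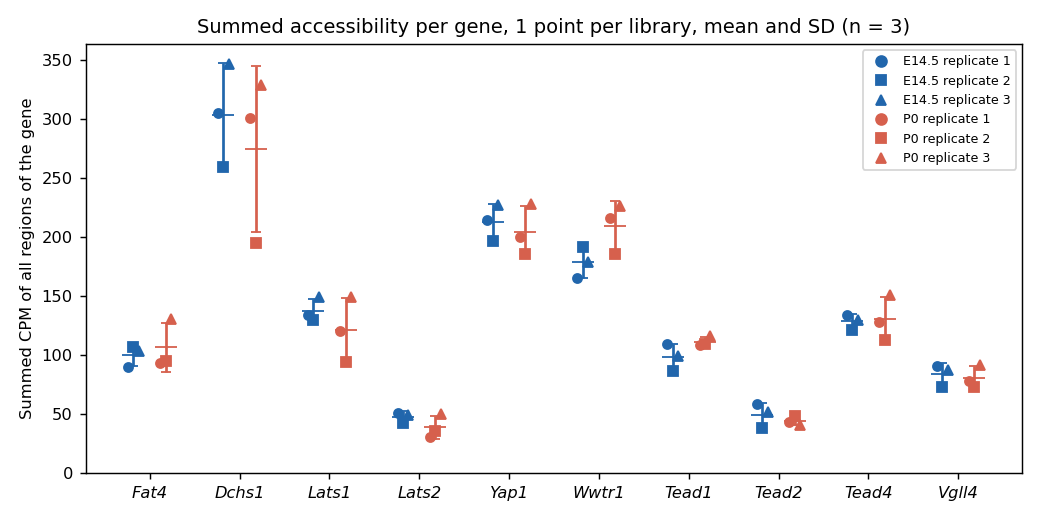
CPM summed over all regions of each gene, with 1 point per library and the stage mean ± SD (n = 3; blue E14.5, red P0). The stages overlap at every gene, and Wwtr1, from 165 to 191 CPM at E14.5 and from 185 to 227 at P0, has the largest positive percent difference of the means.

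Another 35 genes of the pathway were examined over the same 50 kb windows. They held 167 regions, of which 5 (2.99%) passed, 4 higher and 1 lower at P0, against the 4.73% of all regions. Wwc2, a relative of the Lats activator Kibra, had 2 of them. The one outside the gene, 16.0 kb away (chromosome 8, 47809556 to 47810513), had 3.32, 3.42 and 3.97 CPM at E14.5 and 7.70, 9.69 and 8.21 at P0, without overlap. It rose by 1.25 on the log2 scale (SE 0.29, edgeR adjusted p = 0.0239). The region inside Wwc2 (47930873 to 47931578) had 2.728, 5.08 and 4.905 CPM at E14.5 and 11.24, 7.113 and 10.42 at P0. There the rise was 1.18 on the log2 scale (SE 0.32, edgeR adjusted p = 0.0472).

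A region 15.1 kb from Fat3, a relative of Fat4 (chromosome 9, 16517098 to 16518456), had 13.8 ± 5.71 CPM at E14.5 and 29.0 ± 3.27 at P0 (mean ± SD of 3 libraries). It rose by 1.05 on the log2 scale (edgeR adjusted p = 0.0271). Near Ankrd1, a well-known target of Yap1, a region 12.8 kb away and inside Rpp30 (chromosome 19, 36098121 to 36100297) had 9.54 ± 2.05 CPM at E14.5 and 18.3 ± 3.08 at P0, and rose by 0.94 on the log2 scale (edgeR adjusted p = 0.0330). Inside Limd1, a scaffold protein that restrains Lats kinases (chromosome 9, 123506049 to 123507003), the values were 10.6 ± 3.04 CPM at E14.5 and 4.82 ± 1.16 at P0, a log2 fold change of -1.12 (edgeR adjusted p = 0.0462). None of the 87 regions of the kinase module and its upstream regulators passed other than those at Wwc2 and Limd1, and none of the 11 of Tead3 and the other Vgll genes. None of the 167 passed when E14.5 replicate 1, E14.5 replicate 3 or P0 replicate 1 was left out, and over all regions the calls went from 2059 to 1099, 339 and 474 in the same fits.

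The authors' deposited table classed 1 of the 62 regions as opening and 0 as closing, against 2.86% and 2.48% of all distinct regions. The region it classed as opening is the one inside Yap1, with a log2 fold change of 0.83 and an adjusted p of 0.0657 in the authors' deposited table. The regions nearest the 50 kb limit were, inside, at 44.6 and 49.9 kb from Wwtr1 and 47.9 kb from Tead1, with log2 fold changes of 0.72, -0.36 and -0.06. Outside, they were at 52.2 kb from Lats2, 53.6 kb from Tead2 and 55.0 kb from Tead4, with -0.41, -0.07 and -0.39.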

How the data were processed

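Per the file headers, the columns of the deposited table held whole-number counts per region for 6 libraries, with 1 region set for both stages. The genome build was mm10, per the submitters' processing notes. The aligner, peak caller, counting rule, duplicate removal and Tn5 shift are not given in the sources used here, and their effect on counts was not assessed. The authors' own log2 fold change and mean log2 level, t statistic (a score) and adjusted p-value stand in the deposited table without a stated model, and only the first and the last were used.

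Of 45489 rows, 1966 repeated a region, and 43523 distinct regions were tested with edgeR 4.0.16 (TMM scaling, filterByExpr, which removed 0 regions, quasi-likelihood F test, stage as the only term, Benjamini-Hochberg over all regions). All 62 regions passed the filter, with 6 to 1257 counts per library. The standard error is the log2 fold change divided by the square root of F. The fit was tested on simulated data. P-values rest on the spread between 3 litters per stage.

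Start sites came from RefSeq for 7 genes and from the table's promoter column for Dchs1, Tead1 and Tead4. The members and lists were chosen with earlier results of these data known. Named regions are those past the threshold, the start-site region, the region with the smallest p and the most accessible region per length of each gene, and those nearest the 50 kb limit. Some regions outside this rule are marked as chosen after their values were seen. Others are named for an annotation, such as a VISTA element, a Six2 motif or a further promoter. Alternatives were other scalings, filters, thresholds and windows, DESeq2 1.42.0, limma-voom (limma 3.58.1), the replicate number as a block, and leaving out each library.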

Additional observations from a re-analysis of the deposited data

How the results depend on the processing

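The count of regions that passed at the 10 genes was 1. It became 0, with 0 higher at P0, under a minimum of 50 counts per library, with limma-voom and at an adjusted p under 0.01, and 3, all higher, under 0.1. Windows of 100 kb gave 2, both higher, the second being near Tead4. The other scalings, the DESeq2 Wald test, the other windows and no filter gave 1. Over the 6 fits that left out a library the count was 0 to 2, with 0 to 2 higher and 0 to 1 lower at P0: it was 0 without E14.5 replicate 1, E14.5 replicate 3 or P0 replicate 1, and without P0 replicate 3 the call was a region lower at P0, in Yap1 from 7960125. Calls over all regions moved too, from 2059 to 1099, 339 and 474 in those first 3 fits and to 855 under the minimum of 50 counts. At the other pathway genes 9 regions passed with the DESeq2 Wald test against 5, and 0 to 10 across the fits that left out a library, the 10 without E14.5 replicate 2.

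With the replicate number as a block 0 regions passed at the 10 genes, 0 of them higher, with an adjusted p of 0.0570 for the Yap1 region. The numbers do not pair the libraries by the data: the deviations of same-numbered libraries had correlations of 0.07, -0.14 and 0.08.

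The direction of some differences changed with the setting, and the cause was not tested. With total-count scaling the summed difference (P0 minus E14.5) was 0.420 CPM at Yap1 and 0.610 at Vgll4, in place of -8.35 and -2.98, and with windows of 100 kb it was -4.82 at Tead4 in place of 2.20. Leaving out a library gave summed differences from -56.0 to 11.0 CPM at Dchs1 (-28.9 with all libraries, 11.0 without P0 replicate 2), -20.2 to 1.27 at Yap1, -8.30 to 0.934 at Vgll4, -7.74 to 11.0 at Tead4 and -5.62 to 13.02 at Fat4. The log2 fold change of the start-site region ranged over these fits from -0.16 to 0.26 at Fat4, from -0.44 to 0.10 at Lats1, from -0.15 to 0.42 at Tead1 and from -0.23 to 0.031 at Tead4, where total-count scaling gave 0.0046. A promoter 47.9 kb from Tead1 ranged from -0.19 to 0.019. The region from 45181281 near Tead2 had 0.064 with total-count scaling, 0.0072 with at least 50 counts, 0.034 with the block and 0.048 with limma-voom, and -0.21 to 0.30 with a library left out. The region from 114888585 in Vgll4 had 0.056, 8.44e-05 and 0.012 with total-count scaling, at least 50 counts and limma-voom, and -0.24 to 0.15 with a library left out. The biological coefficient of variation was 0.211.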

Other observations

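The table also holds columns that link regions to genes by EnhancerAtlas, a collection of predicted enhancer targets. Of the 62 regions 29 carried such links, and 0 named any of the 10 genes. Elsewhere 160 links named 1 of the 10 genes, and 0 of the 160 lay on the chromosome of the gene named. Over all genes with a unique RefSeq symbol, 998 of 183214 links (0.545%) were on the same chromosome as their region. The links were therefore used for no comparison.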
